A study of Mus musculus with 6 samples.

Results

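The transcripts described here encode the NF-κB transcription factor subunits and the IκB proteins that hold or redirect them. The members are all array probe sets whose annotation names 1 gene, and that gene is Rela, Relb, Rel, Nfkb1, Nfkb2, Nfkbia, Nfkbib, Nfkbie, Nfkbiz or Bcl3. The rule found 18 probe sets, of 34945 that name 1 gene, and they stand for 9 of the 10 listed genes, of 18193 genes in all. Nfkb1, which encodes the p105 precursor of p50, is not analysed here, because no probe set carries its name in the annotation used. The RNA came from bone marrow B cells of C57BL/6 mice of mixed sex, aged 8 to 12 weeks. Depletion had removed cells with Gr1, DX5, CD11b, CD3 or Ter119, and the B cells were then sorted by their surface light chain, Igκ or Igλ, and received no treatment. The first of 3 groups held Igκ+ cells with the genotype mb-1/TAK1f/f, called TAK1-deficient here because the series title names TAK1-/- cells. The second and the third held Igκ+ and Igλ+ cells with the genotype mb-1/TAK1+/+, called wild-type. The mb-1 element is thus carried by all 3 groups. The labels do not say what it drives, how far TAK1 was lost, or whether animals were pooled. Each group had 2 arrays, called replicate 1 and replicate 2, and nothing in the labels says that they came from separate animals, so the p-values can speak only of how far these samples spread, and that spread may be technical.

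NF-κB factors are dimers of Rel homology proteins. In resting cells IκB proteins, with IκBα (Nfkbia) as the best known, keep them in the cytoplasm, until the IκB kinase complex marks the inhibitor for destruction. TAK1, encoded by Map3k7, is a kinase upstream of that complex in several receptor pathways. In B cells RelA and c-Rel act with p50 in the canonical pathway, while RelB acts with p52, which is cut from the p100 product of Nfkb2, in the pathway of survival receptors such as the BAFF receptor. Several genes of the family, Nfkbia among them, are themselves known NF-κB targets. Bcl-3 and IκBζ (Nfkbiz) are nuclear members of the IκB family that bind p50 or p52 homodimers and can act on transcription there.

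A signal here is the brightness of a probe set on a linear scale, scaled by the authors so that the trimmed mean of every array is 500.0. Map3k7, the targeted gene, read by probe set 1419988_at, had signals of 346 and 599 on the TAK1-deficient arrays, 2196 and 1805 on wild-type Igκ+ arrays and 2149 and 1957 on wild-type Igλ+ arrays, in the direction of the labels. It fell by 2.09 log2 units (SE 0.29; limma, Benjamini-Hochberg adjusted p = 0.000437), but the difference of -0.62 that remained after an adjustment for brightness was not called (limma, Benjamini-Hochberg adjusted p = 0.0983), and whether the probes lie in the deleted part is not stated.

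The signals of the TAK1-deficient arrays were distributed unlike those of the wild-type arrays. TAK1-deficient arrays had a median signal of 324 and 323, where wild-type arrays had 44.9 to 59.1. The geometric mean of the 18 spiked control probe sets was 47043 and 41197, against 3985 to 4608, and the 95th percentile of 27 control probe sets with no spike was 77.7 and 75.7, against 10.3 to 17.4. The ratio of 3′ to 5′ signal, which rises as RNA or cDNA is shortened, for Actb was 6.28 and 4.18 in TAK1-deficient samples and 1.25 to 1.58 otherwise. The 2 TAK1-deficient arrays correlated over all probe sets with r = 0.919, pairs of wild-type arrays with 0.962 to 0.984, and pairs that cross the genotypes with 0.432 to 0.51. B cell markers were present in every group, with 0 of 13 measured markers at the level of the unspiked controls on both arrays of a group. Their summed signal was 118819 to 131683 on TAK1-deficient arrays, 78418 to 85273 on wild-type Igκ+ arrays and 82365 to 84294 on wild-type Igλ+ arrays, but single markers went both ways, with 6 lower, 4 higher and 3 not called in TAK1-deficient against wild-type Igκ+ cells and a median log2 difference of -0.29. Over all genes, with 1 probe set per gene, 31.9% were lower and 48.2% higher, and 19.3% and 22.0% after an adjustment for brightness that is described with the members. The sum over 11 T cell markers was 2624 to 2995, 310 to 454 and 400 to 706, and 8 were higher and 0 lower, with Cd3d, Lat and Thy1 at the level of the unspiked controls on both TAK1-deficient arrays. Of 12 stromal and endothelial markers, 11 had a higher signal and 1 a lower one on the TAK1-deficient arrays (limma, Benjamini-Hochberg adjusted p under 0.05), and they summed to 7176 to 7509, 1177 to 1393 and 1053 to 1200 in the same order of groups. After the adjustment for brightness 4 of these 12 were higher and 0 lower. The same adjustment gave 1 T cell marker higher and 3 lower, and 6 B cell markers higher and 1 lower. Plasma cell markers went the other way, with 5 of 9 lower and 2 higher, and sums of 4285 to 4860, 20888 to 29781 and 9639 to 20159. With the adjustment 3 plasma cell markers were lower and 0 higher. The genotype differences below come from these arrays, and the part of array quality or of other cells in them was not tested.

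Most NF-κB and IκB transcripts had a lower signal in TAK1-deficient Igκ+ cells than in wild-type Igκ+ cells. The comparison asks how TAK1 loss changes B cells with the same light chain. Of the 18 probe sets, 12 were lower and 2 were higher past the threshold, an adjusted p of 0.05, and 4 were not called. The adjusted p-values of those called ran from 2.99e-05 to 0.0481 (limma with Benjamini-Hochberg adjustment over 45037 probe sets). Over all probe sets tested, 21.8% were called lower and 56.8% higher. The log2 difference had a median of -1.36 over the members and 1.53 over all probe sets, computed on log2(signal + 16), a scale that understates changes of dim probe sets. The TAK1-deficient and wild-type Igκ+ arrays did not overlap for 15 of the 18 members, a property of 90.3% of all probe sets, so that separation of the groups says little about the members. In such bulk samples fewer cells of a type and less RNA per cell cannot be told apart.

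The difference between genotypes depended strongly on how bright a probe set was in wild-type cells. Dim probe sets were mostly higher on the TAK1-deficient arrays and bright ones mostly lower, and most members lie on the bright side. A second fit therefore subtracted from each TAK1-deficient array a smooth curve of its log2 difference against the mean wild-type level, which is called the level adjustment. After it 5 of 18 members were lower and 5 were higher, where all probe sets gave 19.9% lower and 23.6% higher (limma, Benjamini-Hochberg adjusted p under 0.05). The median member difference was then -0.15, beside -0.01 over all probe sets. Rela, Nfkbib with both of its probe sets, and 1 probe set each of Nfkbia and Nfkbiz were the 5 lower, of which the dimmer Nfkbib and the Nfkbiz probe set reached the level of the unspiked controls on TAK1-deficient arrays. The 5 higher were the other 4 probe sets of Nfkbia and the second one of Nfkb2. In the brightest of 60 level bins, with 751 probe sets, the curve lay at -1.06 and the bin's own median at -0.71, so the adjusted values of the brightest Nfkbia probe sets are raised by such a gap. The gap went the other way in bins at mean wild-type levels of 12.2 and 11.5. There the curve lay at -1.27 and -1.47 and the medians at -1.49 and -1.63, which lowers adjusted values. Nfkbie, at levels of 11.9 and 11.6, lies in that range.

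**Figure D1:**
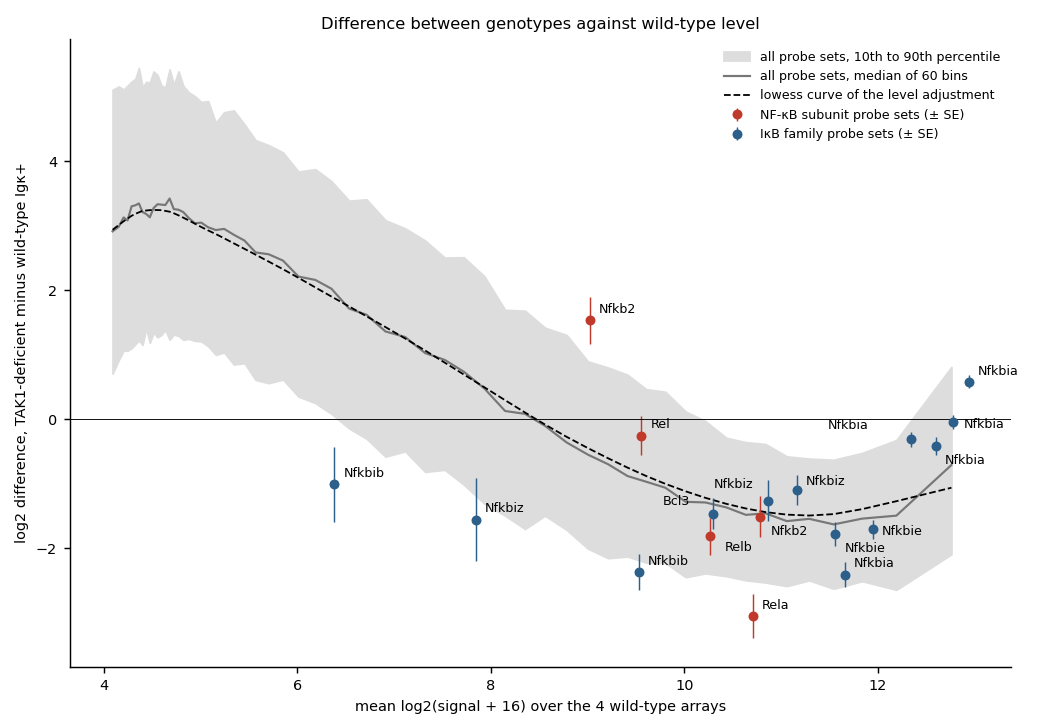
Log2 difference between TAK1-deficient and wild-type Igκ+ cells (vertical) against the mean log2(signal + 16) of the 4 wild-type arrays (horizontal), with members as points and their SE. The grey band holds the 10th to 90th percentile of all probe sets and the lines are their median in 60 bins and the lowess curve. Rela lies below the band at -3.05, as do both Nfkbib probe sets and Nfkbiz 1448728_a_at. Nfkb2 1429128_x_at lies above it at 1.53 as deposited (negative with median centring or spike-in scaling), while Bcl3, Nfkbie and Nfkb2 1425902_a_at lie near the curve.

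The scaling of the arrays changed the size of every member difference and the direction of 8 of 18. Beside the deposited scaling, the arrays were quantile normalized, centred on their medians, scaled on the spiked controls, or level adjusted. The median over all probe sets was 1.53, -0.20, -0.85, -0.86 and -0.01 in that order. Relative to it, the member median lay at -2.89, -1.08, -2.89, -3.68 and -0.14 log2 units, below 0 in each of the 5. These are not 5 separate checks. Median centring moves all probe sets of an array by 1 amount, so its -2.89 repeats the deposited value. Only the level adjustment was fitted to brightness, and it left the smallest gap. As deposited, but with only probe sets above the 60th percentile of mean log2 value, the gap was -0.58. Among all called probe sets, the share that was higher was 72.3% as deposited, 43.5% after quantile normalization, 33.3% after median centring, 29.7% with spike-in scaling and 54.2% after level adjustment. For 10 of the 18 members the difference was negative under all 5 scalings, and for 3 it was also called lower in all 5. These 3 were Rela, Nfkbia 1448306_at and Nfkbib 1421266_s_at. No member was higher under all 5 scalings. The 10 include the dim Nfkbib 1446718_at and Nfkbiz 1448728_a_at, which reached the level of the unspiked controls on TAK1-deficient arrays. The share of all probe sets that meets either condition was not computed, so these counts cannot be read as particular to the members.

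**Figure D2:**
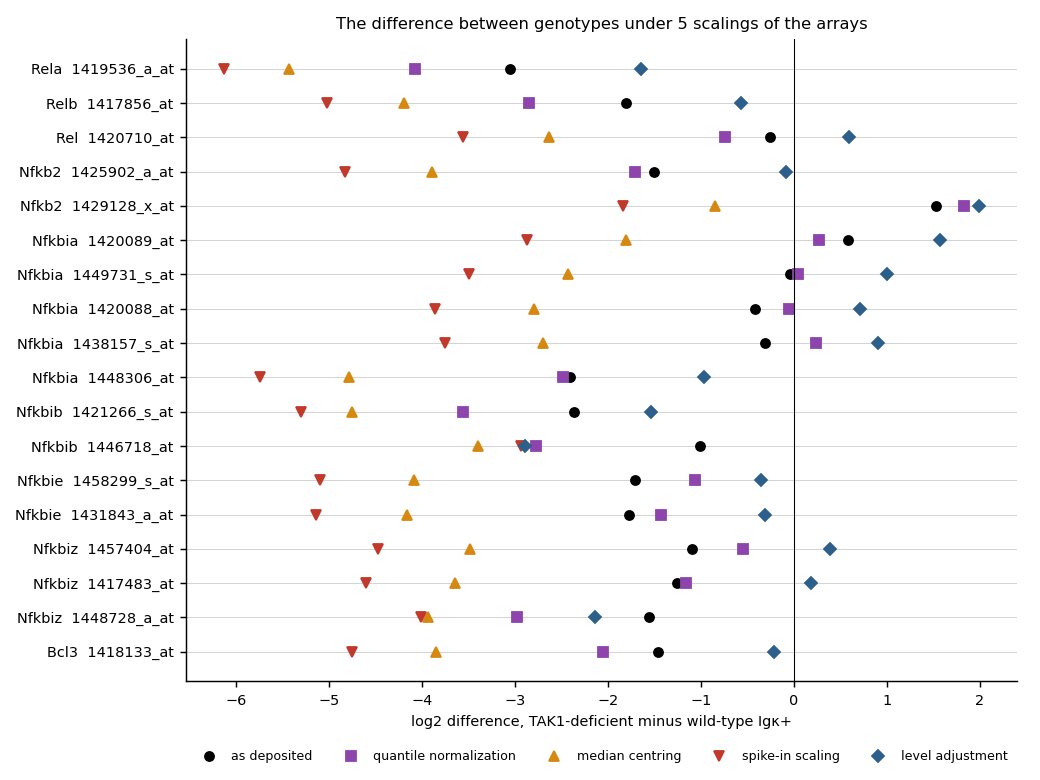
Log2 difference between TAK1-deficient and wild-type Igκ+ cells for each of the 18 probe sets (rows) under 5 scalings of the arrays (symbols). Rela, Nfkbib 1421266_s_at and Nfkbia 1448306_at stay left of 0 throughout and are called lower in all 5, while Nfkbia 1420089_at runs from -2.87 with spike-in scaling to 1.57 after level adjustment.

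Among 5 subunit probe sets 3 were lower and 1 higher as deposited, with a median of -1.51, and Rela had the largest difference. Rela encodes RelA (p65), the activating partner in the canonical dimer. Its signal was 247 and 138 on the TAK1-deficient arrays, 1669 and 1626 on the wild-type Igκ+ arrays, and 2016 and 1364 on the wild-type Igλ+ arrays. Both TAK1-deficient arrays thus lay far below all 4 wild-type arrays, and the wild-type groups overlapped. On the log2 scale Rela fell by 3.05 (SE 0.34), an 8.28-fold lower signal (limma, Benjamini-Hochberg adjusted p = 0.00013), and after level adjustment the difference was -1.65 with a Benjamini-Hochberg adjusted p of 0.00868 from limma. Relb encodes the partner of p52 in the non-canonical pathway. Relb gave 324 and 288 in TAK1-deficient cells against 1313 and 937 in wild-type Igκ+ cells and 1542 and 1149 in wild-type Igλ+ cells, again with no overlap across genotypes. The log2 difference of Relb was -1.81 (SE 0.29) as deposited (limma, Benjamini-Hochberg adjusted p = 0.000796) and -0.57 after level adjustment, where it was not called (limma, Benjamini-Hochberg adjusted p = 0.144).

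Of the 4 subunit genes measured, Rel was the one with no call. It encodes c-Rel, the subunit best known from mature lymphocytes. Rel measured 516 and 618 on the TAK1-deficient arrays, 763 and 598 on the wild-type Igκ+ arrays, and 991 and 649.5 in wild-type Igλ+ cells. The genotypes overlapped in Igκ+ cells, since the second TAK1-deficient array lay above the second wild-type one. The log2 difference was -0.25 (SE 0.30; limma, Benjamini-Hochberg adjusted p = 0.465), and it turned to 0.59 after level adjustment, also not called (limma, Benjamini-Hochberg adjusted p = 0.151). Quantile normalization left it uncalled at -0.74, while median centring and spike-in scaling called it lower at -2.63 and -3.55.

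The 2 probe sets of Nfkb2 gave opposite answers. Probe set 1425902_a_at read 515 and 686 on the TAK1-deficient arrays, 1653 and 1784 on wild-type Igκ+ arrays, and 2378 and 1303 on wild-type Igλ+ arrays, so the TAK1-deficient arrays were the lowest. Probe set 1429128_x_at read 1774 and 1061, then 425 and 506, then 713 and 420.4, so here they were the highest. The first fell by 1.51 log2 units (SE 0.32) (limma, Benjamini-Hochberg adjusted p = 0.00366), which the level adjustment reduced to -0.08. The second rose by 1.53 (SE 0.37) (limma, Benjamini-Hochberg adjusted p = 0.00633) and by 1.995 after level adjustment, but median centring put it at -0.85 and spike-in scaling at -1.84. In Affymetrix names the ending x marks probes that can match other transcripts, and no array value here tells which transcript that probe set read. The gap between the 2 probe sets was 3.04 log2 units as deposited and 2.08 after level adjustment.

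**Figure D3:**
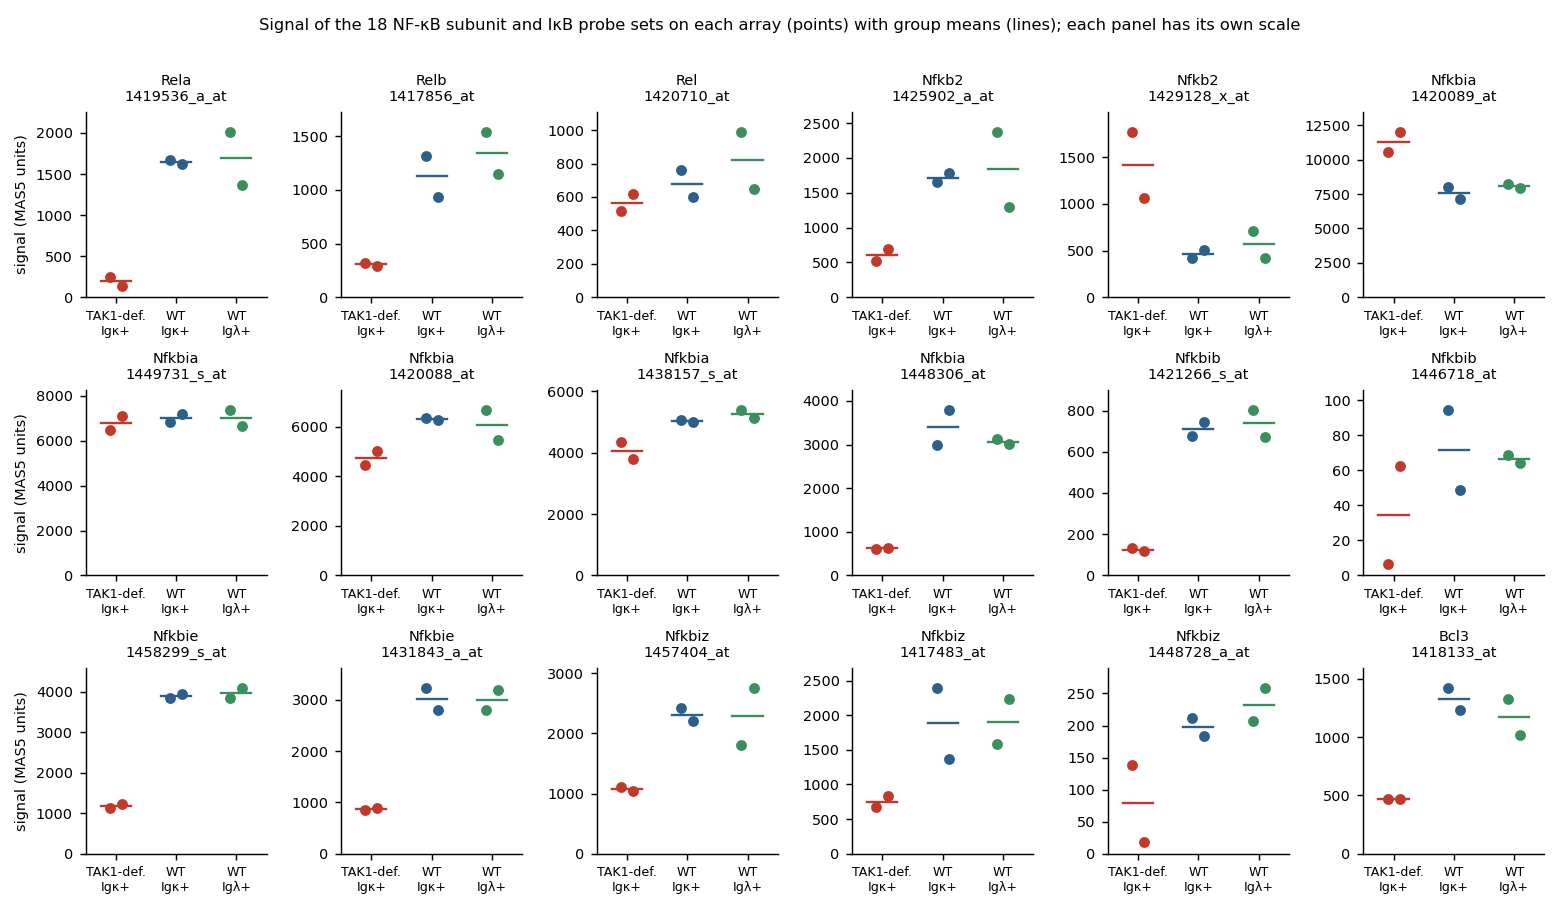
Signal of each of the 18 probe sets (vertical, linear MAS5 units from 0, a separate scale in each panel) on the 6 arrays, with points for arrays and lines for group means. As deposited, the TAK1-deficient arrays are lowest in most panels, highest for Nfkb2 1429128_x_at and Nfkbia 1420089_at (where median centring and spike-in scaling turn the direction), and mixed with the wild-type arrays for Rel, Nfkbia 1449731_s_at and Nfkbib 1446718_at.

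Of the 13 probe sets of inhibitors 9 were lower and 1 higher as deposited, with a median of -1.26. Nfkbia, the gene of IκBα, was read by 5 probe sets, which ranged from higher to much lower in TAK1-deficient cells. Probe set 1420089_at, which had the highest mean signal and represents the gene, gave 10587 and 12033 on the TAK1-deficient arrays, 7991 and 7112 on wild-type Igκ+ arrays and 8223 and 7966 on wild-type Igλ+ arrays. Both TAK1-deficient values were above all wild-type ones, and the log2 difference was 0.58 (SE 0.10), a 1.5-fold higher signal (limma, Benjamini-Hochberg adjusted p = 0.00148), which median centring turned to -1.80 and spike-in scaling to -2.87. The call was also lost with quantile normalization, at 0.27 (limma, Benjamini-Hochberg adjusted p = 0.245), and with eBayes without a trend (limma, Benjamini-Hochberg adjusted p = 0.0562). Probe set 1448306_at showed the reverse, with 605 and 641 in TAK1-deficient cells, 2987 and 3796 in wild-type Igκ+ cells and 3128 and 3002 in wild-type Igλ+ cells. It fell by 2.41 log2 units (SE 0.19), 5.3-fold (limma, Benjamini-Hochberg adjusted p = 2.99e-05), and was also called lower after level adjustment, at -0.96 (limma, Benjamini-Hochberg adjusted p = 0.00577).

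The other 3 Nfkbia probe sets lay between these. Probe set 1449731_s_at gave 6461 and 7106 in TAK1-deficient cells, 6814 and 7174 in wild-type Igκ+ and 7372 and 6667 in wild-type Igλ+ cells, which overlap in full, and its difference of -0.05 (SE 0.11) was not called (limma, Benjamini-Hochberg adjusted p = 0.705). For 1420088_at the values were 4463 and 5001, 6339.7 and 6259, and 6683 and 5459.9, a difference of -0.41 (SE 0.13) (limma, Benjamini-Hochberg adjusted p = 0.0234). For 1438157_s_at they were 4340.1 and 3791, 5083 and 4995, and 5403 and 5133, a difference of -0.31 (SE 0.12) (limma, Benjamini-Hochberg adjusted p = 0.0481). Both were called lower as deposited and higher after level adjustment, at 0.71 and 0.90, and leaving out single arrays removed both calls. The call of 1438157_s_at was lost whichever of the 6 arrays was left out, with adjusted p-values from 0.0568 to 0.255 (limma, Benjamini-Hochberg). That of 1420088_at was lost without TAK1-deficient replicate 1 or either wild-type Igκ+ array. The direction of Nfkbia thus differs between probe sets and between scalings, and the probe sets spanned 2.99 log2 units as deposited and 2.53 after level adjustment.

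Probe sets of a gene often disagreed on these arrays, but less so among bright probe sets. The range of the genotype difference over the probe sets of a gene had a median of 2.02 log2 units over the 9010 genes with at least 2 probe sets, and Nfkb2 and Nfkbia lay at the 70.2 and 69.1 percentile of that distribution. Nfkbib, with a range of 1.36, lay at the 34.0 percentile, Nfkbiz, with 0.46, at 10.7 and Nfkbie, with 0.07, at 1.68. Of the 5 member genes with several probe sets, 2 (Nfkb2 and Nfkbia) had a call in each direction, as did 2163 of the 9010 genes, or 24.0%. Among probe sets with a wild-type level of at least 200 the share was 13.6% of 3580 genes, and the median range was 1.21 log2 units. All probe sets of Nfkb2 and Nfkbia pass that level, and their ranges of 3.04 and 2.99 lie above that median. Their percentile among such bright probe sets was not computed.

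The genes of the remaining cytoplasmic inhibitors, IκBβ and IκBε, were lower in TAK1-deficient cells as deposited by 3 of their 4 probe sets. Nfkbie encodes IκBε, an inhibitor known to bind c-Rel and RelA dimers in B cells. Its probe set 1458299_s_at gave 1134 and 1234 on the TAK1-deficient arrays, 3845 and 3949.8 on wild-type Igκ+ arrays and 3836 and 4087 on wild-type Igλ+ arrays. Probe set 1431843_a_at gave 853 and 883, 3229 and 2808, and 2798 and 3192. For both the genotypes were far apart, while the replicates and the wild-type groups lay close. Nfkbie fell by 1.71 (SE 0.15) and 1.78 (SE 0.18) log2 units, or 3.26-fold and 3.43-fold (limma, Benjamini-Hochberg adjusted p = 4.45e-05 and 8.24e-05). After level adjustment neither probe set was called, at -0.35 and -0.31 (limma, Benjamini-Hochberg adjusted p = 0.0785 and 0.178). The curve for all probe sets of that brightness lay at -1.35 and -1.47.

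Nfkbib encodes IκBβ, an inhibitor that is degraded and resynthesized more slowly than IκBα in many cells. Probe set 1421266_s_at had signals of 132 and 118 in TAK1-deficient cells, 677 and 742 in wild-type Igκ+ and 803 and 672 in wild-type Igλ+ cells, with the TAK1-deficient arrays apart from all others. It fell by 2.36 log2 units (SE 0.27), 5.15-fold (limma, Benjamini-Hochberg adjusted p = 0.000156), and kept a difference of -1.54 after level adjustment (limma, Benjamini-Hochberg adjusted p = 0.00475). The second probe set, 1446718_at, was dim, at 6.49 and 62.4 in TAK1-deficient cells, 94.6 and 48.6 in wild-type Igκ+ and 69 and 64 in wild-type Igλ+ cells. Both TAK1-deficient values lay at or under the level of the unspiked controls of their arrays, so it has no measured level there and no fold is given. It was not called as deposited (limma, Benjamini-Hochberg adjusted p = 0.146).

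Of the nuclear IκB family members, Bcl3 and 2 of the 3 Nfkbiz probe sets were lower as deposited, and none of these was called after level adjustment. Bcl3, which encodes Bcl-3, gave 471 and 469.7 on the TAK1-deficient arrays, 1422 and 1232 on wild-type Igκ+ and 1325 and 1018 on wild-type Igλ+ arrays. The 2 TAK1-deficient values were nearly equal and below all 4 wild-type ones. Bcl3 fell by 1.46 log2 units (SE 0.24), 2.76-fold (limma, Benjamini-Hochberg adjusted p = 0.00106), but by level adjustment it had -0.21 and no call (limma, Benjamini-Hochberg adjusted p = 0.503). Nfkbiz encodes IκBζ, a protein induced quickly by Toll-like receptor signals. Probe set 1457404_at gave 1109.5 and 1034 in TAK1-deficient cells, 2415 and 2203 in wild-type Igκ+ and 1808 and 2755 in wild-type Igλ+ cells. Probe set 1417483_at gave 677 and 826, 2393 and 1372, and 1577 and 2236, with a wide gap between the wild-type Igκ+ replicates. Both fell, by 1.10 (SE 0.24) and 1.26 (SE 0.32) log2 units (limma, Benjamini-Hochberg adjusted p = 0.00405 and 0.0086), and both turned to uncalled positive values of 0.39 and 0.18 after level adjustment. Without wild-type Igκ+ replicate 1 the call of 1417483_at was lost (limma, Benjamini-Hochberg adjusted p = 0.0606). The third Nfkbiz probe set, 1448728_a_at, gave 139 and 18.2 in TAK1-deficient cells, 212 and 184 in wild-type Igκ+ and 207 and 259 in wild-type Igλ+ cells. TAK1-deficient replicate 2 lay at the level of the unspiked controls. The log2 difference of -1.56 (SE 0.65) was not called (limma, Benjamini-Hochberg adjusted p = 0.059), and it rests on that replicate, since without it the difference was -0.47 and not called (limma, Benjamini-Hochberg adjusted p = 0.361). Without replicate 1, which leaves only the value at the level of the unspiked controls, a call appeared (limma, Benjamini-Hochberg adjusted p = 0.0021), and no fold is given for it.

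Several family members are regulated by NF-κB itself, and the DNA before their starts was searched for the NF-κB decamer, the classical κB consensus of 10 bases, on both strands. The windows come from RefSeq (assembly GRCm38.p6) and run from 250 bases before a gene's start to 50 after it. Of the member genes 7 were in that table, with 9 windows, and 5 genes with 7 windows held a match. The decamer matched 2779 of 32851 windows, or 8.46%. Nfkb2 has several windows, and those that begin at 46305445 and 46305680 overlap and share a match, which counts in both. The share of genes with a match over the whole table was not computed. The windows of Rela and Nfkbib held none, and Relb, Nfkbiz and Nfkb1 are named only. Windows of Nfkbia, Nfkb2, Bcl3 and Rela are shown. Among the members, Nfkb2 1429128_x_at had the highest and Rela the lowest difference as deposited, and Nfkbia and Bcl3 had neither. Capitals mark matches on either strand, where hits of the 2 strands can overlap.
Nfkbia (chr12:55492598-55492897, minus strand): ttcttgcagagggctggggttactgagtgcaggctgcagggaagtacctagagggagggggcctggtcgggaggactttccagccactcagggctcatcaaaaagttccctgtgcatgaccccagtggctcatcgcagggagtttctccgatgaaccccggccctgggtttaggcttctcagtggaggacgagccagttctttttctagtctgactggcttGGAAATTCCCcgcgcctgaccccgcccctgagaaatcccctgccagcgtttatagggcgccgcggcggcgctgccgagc
Nfkb2 (chr19:46304487-46304786, plus strand): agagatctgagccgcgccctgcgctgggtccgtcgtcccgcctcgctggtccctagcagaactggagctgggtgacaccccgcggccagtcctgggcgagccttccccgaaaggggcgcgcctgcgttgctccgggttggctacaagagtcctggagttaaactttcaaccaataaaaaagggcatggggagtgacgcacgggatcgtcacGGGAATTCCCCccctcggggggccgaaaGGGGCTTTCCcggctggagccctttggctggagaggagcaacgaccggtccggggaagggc
Bcl3 (chr7:19822706-19823005, minus strand): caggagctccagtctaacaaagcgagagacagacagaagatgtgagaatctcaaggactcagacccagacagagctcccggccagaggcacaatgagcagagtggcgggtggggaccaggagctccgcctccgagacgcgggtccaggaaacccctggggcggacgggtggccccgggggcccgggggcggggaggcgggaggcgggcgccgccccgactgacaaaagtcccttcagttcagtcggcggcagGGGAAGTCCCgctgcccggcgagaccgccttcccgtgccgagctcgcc
Rela (chr19:5637291-5637590, plus strand): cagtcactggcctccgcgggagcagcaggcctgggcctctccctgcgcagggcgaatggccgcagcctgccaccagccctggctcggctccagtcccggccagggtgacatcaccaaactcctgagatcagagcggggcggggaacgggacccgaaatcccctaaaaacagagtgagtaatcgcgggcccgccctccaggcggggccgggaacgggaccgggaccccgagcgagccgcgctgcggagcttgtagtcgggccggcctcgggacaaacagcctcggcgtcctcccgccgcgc
With the start at 0, the Nfkbia match ran from -29 to -20 and the Bcl3 match from 2 to 11. The first Nfkb2 window held matches from -39 to -29, where hits on both strands overlap, and from -11 to -2. Rel held its overlapping matches from -92 to -82 and Nfkbie from -106 to -97. Genes with a match (Bcl3, Nfkbie) and genes without one (Rela, Nfkbib) were both lower as deposited. A match describes these letters only, and binding was not measured.

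Most other genes of the pathway were lower in TAK1-deficient cells as well, each gene being read by its brightest probe set. Of 36 listed regulators of the NF-κB pathway 32 were measured, and 26 were lower, 2 higher and 4 not called in TAK1-deficient cells (limma, Benjamini-Hochberg adjusted p under 0.05). Map3k7, the targeted gene, stands in this list and is counted among the 26 lower, so its call follows from the genotype. With 1 probe set per gene, 31.9% of all 18193 genes were lower and 48.2% higher, and the median log2 difference was -1.61 over the regulators and 0.84 over all genes. After level adjustment 9 regulators were lower and 5 higher, with a median of -0.35, beside 19.3% lower, 22.0% higher and a median of -0.05 over all genes. The 4 lower regulators with the smallest p-values were Bcl10, an adaptor of antigen receptor signalling, Commd1, which promotes turnover of RelA, Birc3, which encodes the ubiquitin ligase cIAP2, and Tank, an adaptor of TRAF proteins. Bcl10, read by a probe set with the x ending, went from 5009 and 4504 in wild-type Igκ+ to 791 and 670.4 in TAK1-deficient cells. Commd1 went from 2676 and 3019 to 328 and 421, Birc3 from 4724 and 6169 to 1393 and 1355, and Tank from 2096 and 1693 to 218 and 299. Their log2 differences were -2.68, -2.88, -1.96 and -2.81, with 0 of these 4 losing the call after level adjustment. The 2 higher regulators were Tab1, which encodes a partner protein of TAK1 and went from 166 and 99.1 to 295 and 292, and Btrc, which encodes the ubiquitin ligase subunit that recognizes phosphorylated IκB and went from 527 and 364 to 774 and 819. After level adjustment Tab1 was not called, at -0.03 (limma, Benjamini-Hochberg adjusted p = 0.947). Btrc was still called higher, at 1.06 (limma, Benjamini-Hochberg adjusted p = 0.0329). Both lost the call under some scalings, since 0 regulators were higher with median centring or spike-in scaling, and under 3 of the 6 fits that left out an array.

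The genes of 2 IκB kinase subunits and of 2 further inhibitors were named by rule and did not all give the same call. The rule also listed Chuk, another IκB kinase gene, which was not measured because no probe set names it alone in the annotation used. Ikbkb, the gene of the IκB kinase subunit IKKβ, had 3781 and 4149 in TAK1-deficient cells against 4495 and 4935 in the Igκ+ wild type, a difference of -0.25 that was not called (limma, Benjamini-Hochberg adjusted p = 0.109). After level adjustment Ikbkb was called higher, at 1.02 (limma, Benjamini-Hochberg adjusted p = 0.000915). Ikbkg, which encodes the regulatory subunit NEMO, had 396 and 459 against 1735 and 1364 and fell by 1.81 (limma, Benjamini-Hochberg adjusted p = 0.000277), with an uncalled -0.43 after level adjustment. Nfkbid, which encodes another nuclear IκB protein, IκBNS, had 530.2 and 543 against 2132 and 1555 and fell by 1.73 (limma, Benjamini-Hochberg adjusted p = 0.000327). Its difference shrank to -0.27 after level adjustment, as that of Bcl3 did. Tnfaip3, the gene of the feedback inhibitor A20, had 259.9 and 302 against 2002 and 1499, with -2.56 as deposited and -1.14 after level adjustment, called both times (limma, Benjamini-Hochberg adjusted p = 7.28e-05 and 0.0084).

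Genes known as NF-κB targets were also mostly lower in TAK1-deficient cells. Of 40 listed targets 39 were measured, with 24 lower, 4 higher and 11 not called, beside 31.9% of all genes lower and 48.2% higher, and a median log2 difference of -1.51, beside 0.84 over all genes. Nfkbid, Birc3 and Tnfaip3 stand in both lists. After level adjustment 15 were lower and 3 higher, with a median of -0.51, where 19.3% of all genes were lower and 22.0% higher with a median of -0.05. The 4 lower targets with the smallest p-values were Cd83, a surface protein of activated B cells, Ltb, which encodes lymphotoxin β, Slfn2, a Schlafen family gene, and Plek, which encodes pleckstrin. Ltb went from 3736 and 4553 in wild-type Igκ+ to 270.2 and 339 in TAK1-deficient cells, and Slfn2 from 3069 and 3838 to 224 and 181. Cd83 went from 5944 and 5759 to 739 and 883, and Plek from 3326 and 3481 to 253 and 317. All 4 were called lower after level adjustment too, at -2.36 for Ltb, -2.55 for Slfn2, -1.69 for Cd83 and -2.05 for Plek. The higher targets with the smallest p-values were the cytokine genes Il10 and Cxcl10, both dim. Il10 had 124 and 129 against 21.9 and 4.37, and Cxcl10 had 227 and 207 against 36.9 and 20.1. Neither was called after level adjustment, where they had -0.77 and 0.00, and with median centring or spike-in scaling 0 targets were higher.

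**Figure D4:**
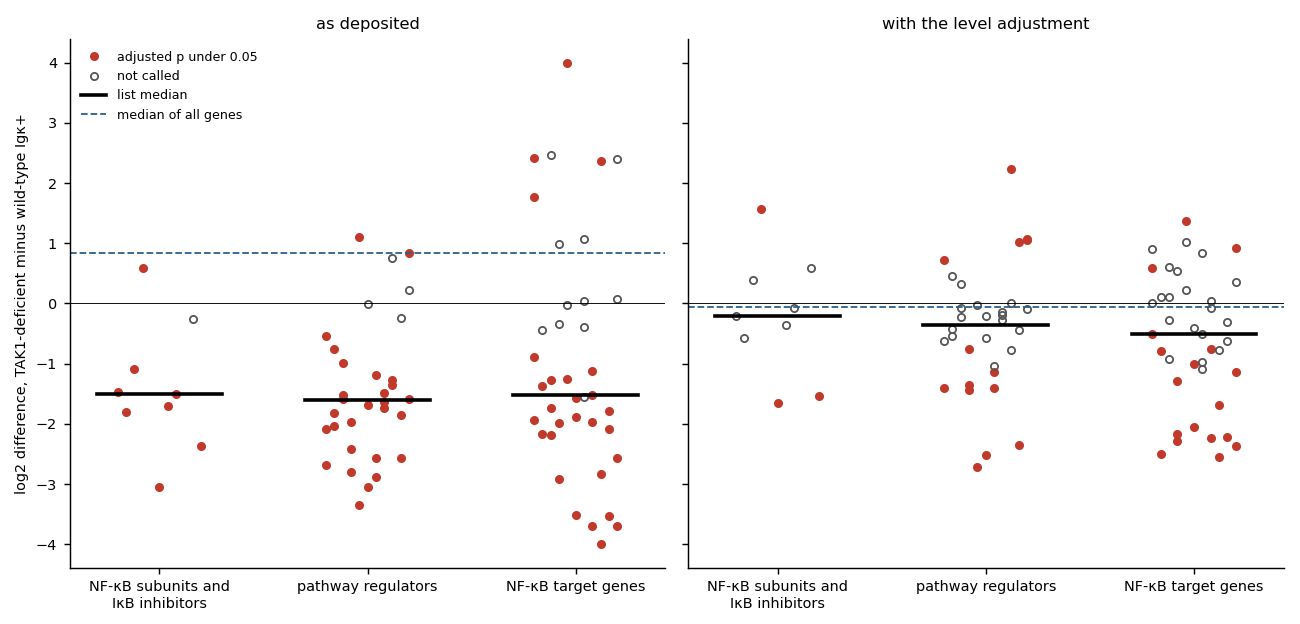
Log2 difference between TAK1-deficient and wild-type Igκ+ cells for the genes of 3 lists, each gene read by its brightest probe set, as deposited (left) and with the level adjustment (right). Filled points passed an adjusted p of 0.05, bars are list medians and the dashed line is the median of all genes; the list medians of -1.51, -1.61 and -1.51 on the left become -0.21, -0.35 and -0.51 on the right.

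The genes most like Nfkbia over the 6 arrays were sought among 13844 genes with a mean signal of at least 200 in a group, by the root mean square difference of their log2 values, each relative to its own wild-type Igκ+ mean. For probe set 1420089_at they were Arl2, with a difference of 0.0678 log2 units, Tmem175, with 0.0840, and Sergef, with 0.0866, beside a median of 1.32 over all genes compared. Arl2 read 613 and 656 on the TAK1-deficient arrays, 419.9 and 387 on wild-type Igκ+ and 477 and 406 on wild-type Igλ+ arrays. None of the 3 was itself called between genotypes as deposited, with adjusted p-values of 0.0574, 0.0802 and 0.161 (limma, Benjamini-Hochberg). The search used deposited values only, and these genes are much dimmer, with wild-type Igκ+ means of 404, 236 and 254 beside 7551 for Nfkbia. After level adjustment their genotype differences were 0.90, 0.17 and 0.17, beside 1.57 for Nfkbia, and Arl2 was then called higher (limma, Benjamini-Hochberg adjusted p = 0.0335).

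Between wild-type Igλ+ and Igκ+ B cells no difference in the family was detected with 2 arrays per group. The comparison asks which transcripts differ with the light chain at the same genotype. In it 0 of 18 members were called, and 0% of all 45037 probe sets were lower and 0% higher (limma, Benjamini-Hochberg adjusted p under 0.05). At an unadjusted p under 0.05 the count was 0 of 18 members and 891 of all probe sets, or 1.98%. The member differences, Igλ+ minus Igκ+, ran from -0.19 for Bcl3 to 0.26 for Relb on the log2 scale, with a median of 0.03 over the members and 0.07 over all probe sets. Their 95% confidence intervals reached 0.24 log2 units to either side for Nfkbia 1420089_at and 1.53 for Nfkbiz 1448728_a_at. For Rela the interval ran from -0.79 to 0.81, for Relb from -0.41 to 0.94 and for Nfkbie 1458299_s_at from -0.33 to 0.38. These intervals are for single probe sets, without adjustment for the number tested. The groups did not overlap for 1 of 18 members, beside 27.1% of all probe sets. That member was Nfkbia 1438157_s_at, with 5403 and 5133 in Igλ+ and 5083 and 4995 in Igκ+ cells, a difference of 0.06 that was not called.

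**Figure D5:**
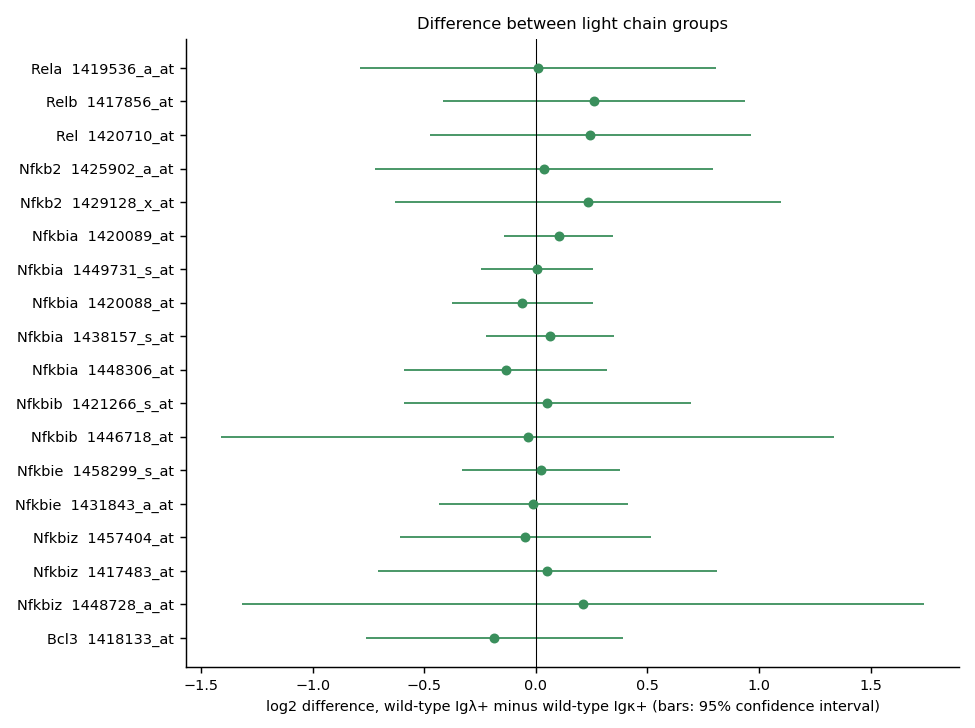
Log2 difference between wild-type Igλ+ and wild-type Igκ+ cells for each of the 18 probe sets (points) with its 95% confidence interval (bars) from limma. All intervals cross 0, and they are narrowest for the bright Nfkbia probe sets and widest for the dim Nfkbib 1446718_at and Nfkbiz 1448728_a_at.

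The wild-type Igλ+ replicates differed from each other for the subunits. All 5 subunit probe sets were higher on Igλ+ replicate 1 than on replicate 2, by 0.42 to 0.86 log2 units with a median of 0.60. Nfkb2 1425902_a_at, for example, gave 2378 and 1303, and Rela gave 2016 and 1364. Of the 13 inhibitor probe sets 8 were higher on replicate 1, with a median of 0.06, and over all probe sets 48.6% were, with a median of -0.01. The same array carried more signal of other blood cells. The sum over 11 granulocyte markers was 41610 on Igλ+ replicate 1 and 349.8 on replicate 2, beside 5727 and 367 on the wild-type Igκ+ arrays and 7888 to 8597 on the TAK1-deficient ones. The TAK1-deficient sums come from arrays with median signals of 324 and 323, against 44.9 to 59.1. Of these 11 markers 1 was higher and 0 lower in TAK1-deficient against wild-type Igκ+ cells (limma, Benjamini-Hochberg adjusted p under 0.05). After level adjustment 0 were called either way. Monocyte and macrophage markers summed to 12472 on Igλ+ replicate 1 and 2897 on replicate 2, and megakaryocyte markers to 5081 and 104. The part of these cells in the gap between the replicates was not tested. Without Igλ+ replicate 1 the median member difference from wild-type Igκ+ cells was -0.06, and without replicate 2 it was 0.08, with 0 members called either way.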

How the data were processed

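The data are 6 Affymetrix arrays of sorted bone marrow B cell RNA, 2 for each of 3 groups taken from the sample titles. The authors deposited probe set signals, which are linear array intensities; the submitters' processing notes name MAS5, and its version is not given in the sources used here. Trimmed by 2% at each end, the deposited intensities average 500.0 on every array, so a weak array has its background raised with its signals. Precision is limited by the number of arrays.

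Of 45101 probe sets, 34945 name 1 gene, 932 several and 9160 none in the platform annotation, and 64 are controls. Symbols of all 18 member probe sets matched a RefSeq table of assembly GRCm38.p6. Signals were taken to log2(signal + 16) and fitted with limma (3.58.1 under R 4.3.3; lmFit over all 6 arrays with group means, 3 residual degrees of freedom, eBayes with a trend), two-sided, with Benjamini-Hochberg adjustment over 45037 probe sets that are not controls, a threshold of 0.05 and no filter on low signal. Every probe set was its own feature, and for lists the probe set with the highest mean log2 value over the 6 arrays stood for a gene. The level adjustment used lowess (span 0.2) against the mean of the 4 wild-type arrays, which are also part of the difference. Deviations of same-numbered arrays from their group means did not correlate above 0.19. The main fit did not pair samples by the title suffix, and whether they were paired is not known.

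Named were all members with each of their probe sets, from each list the 4 lower and the 2 higher genes with the smallest p-values, Nfkbid, Ikbkb, Ikbkg, Map3k7 and Tnfaip3, and the 3 genes most like Nfkbia; the same search could not be made for Nfkb1. The members, lists, level adjustment and tests were chosen with earlier results of these data known. Alternatives were pseudocounts of 1 and 64, filters at the 40th and 60th percentile, 4 other scalings, 1 probe set per gene, a fit of only the 4 arrays compared, eBayes without a trend, a replicate block and leaving out each array. The code was tested on simulated data. Python 3.11.15 with matplotlib 3.10.9 drew the figures.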

Additional observations from a re-analysis of the deposited data

How the results depend on the processing

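Between TAK1-deficient and wild-type Igκ+ cells, 12 of 18 member probe sets were lower and 2 higher. The level adjustment gave 5 lower and 5 higher, and 1 probe set per gene, which leaves 9 probe sets, gave 7 lower and 1 higher. The higher count was 1 with quantile normalization or with eBayes without a trend, and 0 with median centring or spike-in scaling. The median member difference of -1.36 became -1.51 with a pseudocount of 1, -1.14 with 64, -3.74 after centring on medians, -4.54 under spike-in scaling, -0.15 after level adjustment and -1.51 with 1 probe set per gene, and ran from -1.51 to -1.19 when single arrays were left out. Without wild-type Igκ+ replicate 1 the lower count was 9 and without replicate 2 it was 10. Filters at the 40th and 60th percentile kept 17 and 16 of the 18 probe sets. Between the wild-type groups the median of 0.03 became -0.12 when arrays were centred on medians and -0.16 under spike-in scaling, and 0 members were called under any alternative run.

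Regulators lower were 9 after level adjustment, in place of 26. Regulators higher were 5 after it, 0 with median centring or spike-in scaling, and 0 to 3 when single arrays were left out, with 0 without either TAK1-deficient array or without wild-type Igκ+ replicate 2. Targets lower were 15 after level adjustment, in place of 24, and targets higher were 1 with the 60th percentile filter or quantile normalization and 0 with median centring or spike-in scaling.

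Of the member differences between genotypes under the alternatives, 258 kept direction and side of the threshold, 3 uncalled ones changed sign and stayed uncalled, 26 lost a call, 15 gained one and 10 reversed. With median centring and spike-in scaling, Nfkb2 1429128_x_at reversed to -0.85 and -1.84 and Nfkbia 1420089_at to -1.80 and -2.87. After level adjustment Nfkbia 1449731_s_at, 1420088_at and 1438157_s_at reversed to 1.01, 0.71 and 0.90, and Nfkbiz 1457404_at and 1417483_at to 0.39 and 0.18; quantile normalization put Nfkbia 1438157_s_at at 0.24. The cause of these changes was not tested. The 3 uncalled ones were Rel after level adjustment, at 0.59, and Nfkbia 1449731_s_at with quantile normalization and without TAK1-deficient replicate 1, at 0.046 and 0.023. For Nfkbib 1446718_at, at or under the unspiked controls on both TAK1-deficient arrays, a call appeared without replicate 2 and not without replicate 1 (limma, Benjamini-Hochberg adjusted p = 0.00936 and 0.851).

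The replicate number is shared, and deviations of same-numbered arrays correlated at 0.002, -0.0003 and 0.19, the last between the wild-type groups. These correlations cannot show whether the arrays were paired. In both wild-type groups granulocyte markers summed higher on replicate 1, at 5727 against 367 in Igκ+ and 41610 against 349.8 in Igλ+ cells. With the number as a replicate block 12 members were lower and 2 higher, the median was -1.36, Nfkbiz 1448728_a_at gained a call and Nfkbia 1438157_s_at lost one (limma, Benjamini-Hochberg adjusted p = 0.0481 and 0.0553). With 2 arrays per group, dim probe sets near the unspiked controls carry the largest errors.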
